A study of Mus musculus with 4 samples.

Results

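The expression of 10 genes of the fibroblast growth factor (FGF) pathway was followed in denervated and sham tibialis anterior (TA) muscle of wild-type (WT) and Fgf21 knockout (Fgf21KO) mice. They were the secreted ligands Fgf1 and Fgf2, the intracellular homologous factor Fgf11, the receptors Fgfr1, Fgfr2 and Fgfr4, the docking adaptor Frs2, and the feedback inhibitors Spry1, Spry2 and Spred1. The genes were taken by symbol from the deposited count table, where all 10 were found among 13825 genes, and all 10 passed the filter for testing (a mean of at least 10 counts over the libraries, met by 13084 genes). Below, WS and WD stand for sham and denervated muscle of WT mice, and KS and KD for the same muscles of Fgf21KO mice. Every mouse was an adult male, and every muscle was taken on day 14 after surgery on the sciatic nerve. The Fgf21KO mice lacked the gene in the whole body, the WT mice were C57BL/6J per the study's methods, and the background strain of the knockout was not given in the sources used here. In the denervated leg a piece of the sciatic nerve had been removed, and the control muscle came from the opposite leg, which the labels describe as innervated and the study's methods as sham-operated. Each group was 1 library made from 4 pooled muscles, so there was no replicate within a group. For gene expression work, the study's methods place sham surgery and denervation on opposite legs of the same mice. Whether the sham and denervated pools of a genotype held exactly the same mice was not given in the sources used here. Fgf21 itself was not analysed here, and the knockout label was therefore taken as given.

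FGFs bind tyrosine kinase receptors at the cell surface together with heparan sulphate chains, and the activated receptor phosphorylates the docking protein FRS2, which couples it to RAS and the ERK kinases. ERK activity in turn induces the Sprouty and Spred proteins, which dampen the same cascade. In skeletal muscle FGF1 and FGF2 are known as mitogens of satellite cells, whereas FGF21 is an endocrine member of the family that signals through FGFR1 with the co-receptor beta-Klotho.

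The libraries held between 25249879 and 34141303 counts. Levels were expressed as CPM, counts divided by library size and set to a common total, with library sizes scaled by the trimmed mean of M-values (TMM), and 3 counts, the limit that a count of 0 allows, corresponded to between 0.092 and 0.129 CPM. The 13 mitochondrial protein genes took 27% and 30.4% of the counts in WS and KS against 19.4% and 20.6% in WD and KD. With total counts in place of TMM the median log2 ratio of all genes was 0.29 in WT and 0.36 in Fgf21KO muscle, denervated over sham, so all denervation ratios below are relative to the median gene. Of 12 fibre markers, the 3 analysed here (Myh1, Mylpf and Pygm) summed to 43083 and 40891 CPM in WS and KS and to 24601 and 26398 CPM in WD and KD, present in each library and lower in the denervated ones. Of 15 listed genes known to respond to denervation, 5 were analysed here, among them Gadd45a, Hdac4 and Fbxo32. Their summed level was 376 and 349 CPM in WS and KS and 1902 and 1952 CPM in WD and KD. That list was written with earlier results of these data known.

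Levels were compared between genes per kilobase of exon, on the CPM scale. The inhibitor Spry1 had the highest mean level over the 4 libraries (9.01 CPM per kb), followed by Fgf1 (7.00), Fgfr1 (6.85), Spry2 (4.30), Fgf11 (3.34), Spred1 (2.29), Frs2 (2.07), Fgf2 (1.20), Fgfr4 (0.905) and Fgfr2 (0.129). Only 2 pairs of neighbours in this order had library ranges that did not overlap, namely Fgfr1 and Spry2, whose means were 1.59-fold apart, and Fgfr4 and Fgfr2, 7.03-fold apart. Fgfr1 made up most of the level of the 3 receptors in every library, at 85.2% (WS), 91.3% (WD), 83.6% (KS) and 86.9% (KD). Fgfr4 took between 7.93% and 15.6%, and Fgfr2 between 0.752% and 2.56%. The members also differed in how far they moved over the libraries. Spry1 stayed within 1.21-fold and Fgfr1 within 1.27-fold, while the highest and lowest library were 3.73-fold apart for Fgfr2 and 4.10-fold apart for Fgf2.

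**Figure D1:**
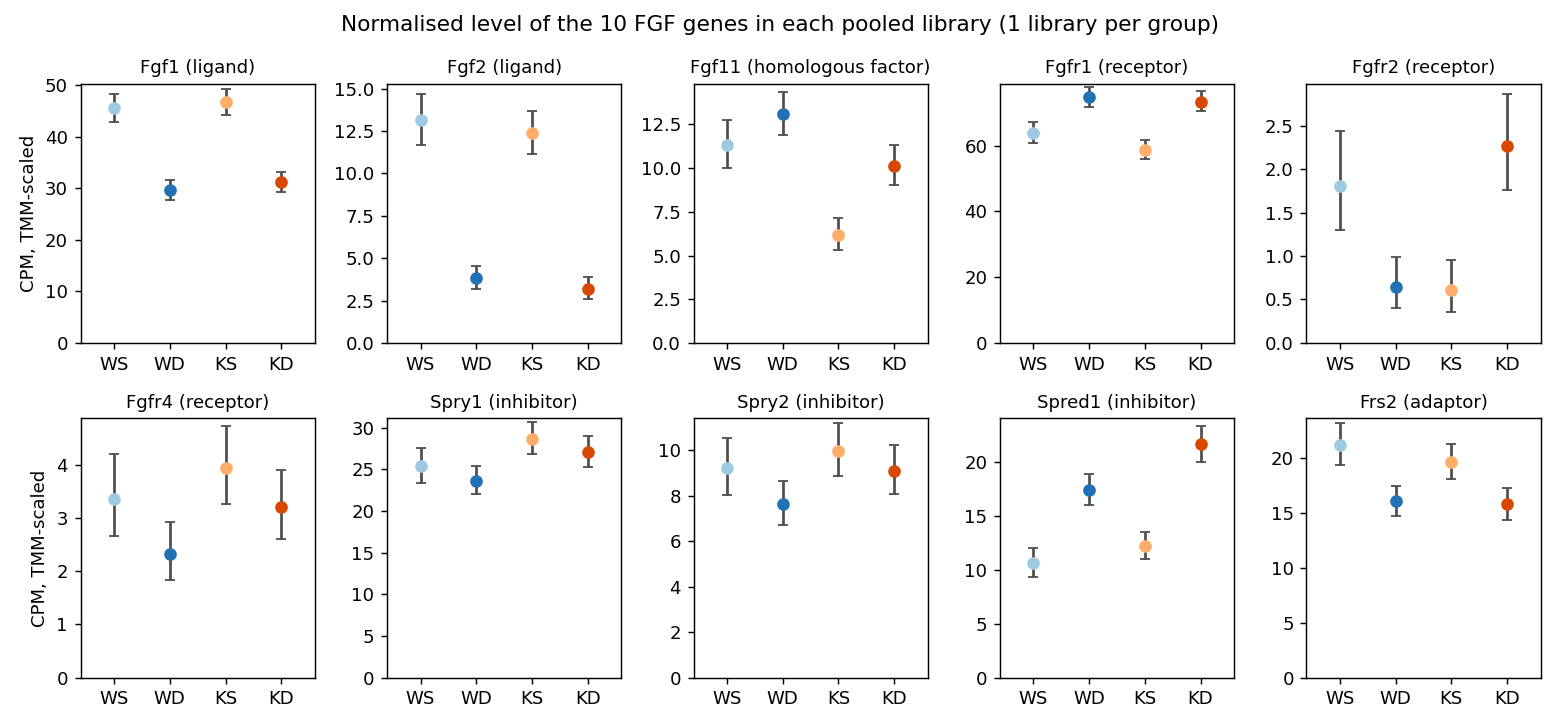
Level of each of the 10 FGF genes (vertical axis, TMM-scaled CPM, starting at 0) in the 4 pooled libraries (WS, WD, KS, KD); each point is 1 library and each bar its exact 95% Poisson interval, which covers counting error only. Fgf2 drops from 13.1 and 12.4 CPM in the sham libraries to 3.83 and 3.20 CPM in the denervated ones, Spred1 is highest in WD and KD, and Fgfr2 is high in WS and KD but low in WD and KS.

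The first comparison asked how denervation changed these genes over both genotypes. Fgf2 fell 3.63-fold and was the only member past both limits of a call, an adjusted p below 0.05 and a change of at least 2-fold, in the quasi-likelihood test of edgeR after Benjamini-Hochberg adjustment. Spred1 was 1.70-fold higher and Fgf1 1.52-fold lower in denervated muscle, both past the adjusted p but under 2-fold. In all, 1 of 10 members was called, where 13.1% of all genes were, and 6 of 10 passed the adjusted p alone, where 53.5% of all genes did. Of these 6, 3 were higher (26.6% of all genes) and 3 lower (27.0%), so the share of members was near the background. The median log2 fold change of the members was -0.15, and that of all genes 0.01. The fit had 1 residual degree of freedom, the interaction of genotype and denervation in these 4 pooled libraries. Its p-values rest on departures from additivity, with information shared across genes, and do not measure the spread between mice. In bulk muscle, fewer cells of a type and less RNA per cell cannot be told apart.

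Among the ligands, Fgf2, a mitogen that leaves cells without a signal peptide, had 305 (WS), 125 (WD), 367 (KS) and 99 (KD) counts, or 13.1, 3.83, 12.4 and 3.20 CPM. Both denervated libraries were low and both sham libraries high, with no overlap. The log2 ratio was -1.76 in WT muscle (WD vs WS, 95% counting interval -2.09 to -1.47) and -1.93 in Fgf21KO muscle (KD vs KS, -2.28 to -1.62). The fitted change over both genotypes was -1.86 (SE 0.16, adjusted p = 9.51e-11 by edgeR), and Fgf2 was called under each of the alternatives of this test. Its annotated exons on GRCm38 (chr3:37348346-37410108, plus strand) share 640 bases with Nudt6 on the opposite strand. Nudt6, which had 313, 331, 462 and 366 counts in WS, WD, KS and KD, had log2 ratios of -0.41 and -0.39 in the same comparisons. Whether the counting used the strand was not given in the sources used here, so reads over these bases cannot be assigned with certainty.

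Fgf1, which binds all FGF receptors, had 1056 (WS), 967 (WD), 1386 (KS) and 963 (KD) counts (45.5, 29.6, 46.7 and 31.1 CPM). The sham libraries again lay above the denervated ones. Its log2 ratio was -0.62 in WT (interval -0.75 to -0.49) and -0.58 in Fgf21KO muscle (-0.70 to -0.46), and the fitted change was -0.60 (SE 0.09, adjusted p = 9.18e-07 by edgeR). With total counts in place of TMM the 2 ratios were -0.33 and -0.23. Because Fgf2 moved further than Fgf1, the level of Fgf1 over that of Fgf2, per kb, was 4.30 in WS and 4.69 in KS but 9.60 in WD and 12.1 in KD.

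Fgf11, which acts inside the cell on voltage-gated sodium channels and not on FGF receptors, had 263 (WS), 427 (WD), 183 (KS) and 314 (KD) counts (11.3, 13.1, 6.16 and 10.2 CPM). Its lowest library was KS, and the WS value lay between the denervated ones. The log2 ratio was 0.21 in WD vs WS, with an interval of -0.02 to 0.44 that includes 0, and 0.71 in KD vs KS (0.45 to 0.99). Over both genotypes the change was 0.45 (SE 0.15, adjusted p = 0.0115 by edgeR), but Fgf11 did not pass without the genotype term in the model or in DESeq2's Wald test. With total counts only the ratios were 0.49 and 1.07. On GRCm38 the gene (chr11:69796068-69801857, minus strand) lies 125 bases from Chrnb1 on the same strand. Chrnb1, the acetylcholine receptor beta subunit, had 886, 6952, 1088 and 7125 counts in WS, WD, KS and KD, with log2 ratios of 2.48 and 2.65 on denervation. Its part in the Fgf11 counts was not tested.

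The promoters of Fgf2, Spred1 and Fgfr2 are shown because these members had the largest fall, the largest rise and the largest difference between the genotypes. Each run holds 250 bases before and 50 after the RefSeq start on GRCm38.p6, read 5′ to 3′ on the strand of the gene, at chr3:37348403-37348702 (plus) for Fgf2, chr2:117120821-117121120 (plus) for Spred1 and chr7:130266759-130267058 (minus) for Fgfr2. Capitals mark GC boxes, written GGGCGG, on either strand.
Fgf2: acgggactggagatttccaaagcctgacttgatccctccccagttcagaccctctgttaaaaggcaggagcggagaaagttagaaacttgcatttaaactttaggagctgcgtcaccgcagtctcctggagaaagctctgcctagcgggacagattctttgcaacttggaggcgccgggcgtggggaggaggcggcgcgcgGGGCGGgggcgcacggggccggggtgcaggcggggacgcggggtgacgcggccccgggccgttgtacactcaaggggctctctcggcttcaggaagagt
Spred1: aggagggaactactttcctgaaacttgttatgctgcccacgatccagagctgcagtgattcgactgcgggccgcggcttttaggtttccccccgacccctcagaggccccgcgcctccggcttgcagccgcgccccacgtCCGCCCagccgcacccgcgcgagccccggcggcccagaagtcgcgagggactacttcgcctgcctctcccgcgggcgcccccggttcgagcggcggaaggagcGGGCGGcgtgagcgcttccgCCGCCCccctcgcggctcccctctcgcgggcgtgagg
Fgfr2: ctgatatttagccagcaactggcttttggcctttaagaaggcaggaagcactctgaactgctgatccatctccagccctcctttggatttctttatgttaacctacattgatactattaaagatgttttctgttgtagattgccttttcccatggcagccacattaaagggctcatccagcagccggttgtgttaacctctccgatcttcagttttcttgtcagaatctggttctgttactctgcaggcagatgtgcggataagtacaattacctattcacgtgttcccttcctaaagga
The Fgf2 promoter held 1 GC box at a GC content of 62.7%, the Spred1 promoter 3 at 72.3%, and the Fgfr2 promoter none at 43.7%, beside a median GC content of 52.7% over all promoters. Of the 8 member promoters searched (those of Fgf2, Fgf11, Fgfr2, Fgfr4, Spry1, Spry2, Spred1 and Frs2), 5 held a GC box, as did 35.7% of 32851 RefSeq promoters of the same length. The ETS core CCGGAA stood in 3 of the 8 (14.9% of all promoters), the RUNX motif TGTGGT in 2 (16.8%), the E-box CAGCTG in 1 (16.3%) and the AP-1 motif TGANTCA in 0 (7.8%), each searched on both strands. These matches are descriptions of the letters in each window and were not tied to the direction in which the genes moved.

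Of the receptors, Fgfr1 was the most abundant, with 1485 (WS), 2439 (WD), 1745 (KS) and 2269 (KD) counts (63.9, 74.7, 58.8 and 73.4 CPM). Both denervated libraries lay above both sham libraries by a small margin. The log2 ratios were 0.22 (interval 0.13 to 0.32) in WT and 0.32 (0.23 to 0.41) in Fgf21KO muscle. The fitted change of 0.27 (SE 0.08) had an adjusted p of 0.00370 by edgeR, but the gene did not pass in DESeq2's Wald test, and with total counts only the ratios were 0.51 and 0.68.

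Fgfr4, a receptor known from regenerating muscle, had 78 (WS), 76 (WD), 117 (KS) and 99 (KD) counts (3.36, 2.33, 3.94 and 3.20 CPM). WD was the lowest library and KS the highest, and the denervated value of Fgf21KO muscle lay just below the sham value of WT. The fitted change was -0.41 (SE 0.24, adjusted p = 0.156 by edgeR), and the ratio in KD vs KS turned from -0.29 to 0.06 with total counts only. Fgfr2, whose splice forms serve epithelial and mesenchymal cells, had no change common to both genotypes (0.25, SE 0.48, adjusted p = 0.690 by edgeR). Its values in the 4 libraries are described with the genotype comparison.

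The adaptor Frs2 had 492 (WS), 523 (WD), 583 (KS) and 487 (KD) counts (21.2, 16.0, 19.6 and 15.7 CPM). The denervated libraries were the lower ones. Its log2 ratios were -0.40 (interval -0.58 to -0.22) and -0.32 (-0.49 to -0.14), and the fitted change was -0.36 (SE 0.11, adjusted p = 0.00789 by edgeR). With total counts only, the ratios were -0.12 and 0.04 and Frs2 no longer passed, nor did it in DESeq2's Wald test.

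Among the inhibitors, Spred1, which recruits neurofibromin to shut off RAS, had 248 (WS), 569 (WD), 364 (KS) and 671 (KD) counts (10.7, 17.4, 12.3 and 21.7 CPM). Both denervated libraries were high, KD more so than WD. The log2 ratio was 0.70 in WD vs WS (interval 0.49 to 0.93) and 0.82 in KD vs KS (0.64 to 1.01), and the fitted change was 0.77 (SE 0.12, adjusted p = 3.27e-06 by edgeR). With total counts only the fitted change was 1.09 (adjusted p = 1.60e-05 by edgeR) and Spred1 was called. Set against Spry1 per kb in the same library, the Spred1 level was 0.180 in WS and 0.183 in KS but 0.316 in WD and 0.343 in KD.

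The Sprouty genes, whose products act at several steps between the receptor and RAF, did not follow Spred1. Spry1 had 590 (WS), 771 (WD), 852 (KS) and 837 (KD) counts (25.4, 23.6, 28.7 and 27.1 CPM). Spry2 had 214, 249, 296 and 281 counts in the same order (9.21, 7.63, 9.97 and 9.08 CPM). The sham and denervated libraries of Spry1 overlapped, those of Spry2 were apart by a narrow margin, and KS was the highest library of both genes. The fitted changes were -0.09 (SE 0.10, adjusted p = 0.437) for Spry1 and -0.20 (SE 0.15, adjusted p = 0.260) for Spry2 by edgeR. All 4 of their ratios were negative under TMM (-0.10 and -0.08 for Spry1, -0.27 and -0.13 for Spry2) and positive with total counts only (0.18 and 0.27 for Spry1, 0.01 and 0.22 for Spry2), so no direction is given.

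**Figure D2:**
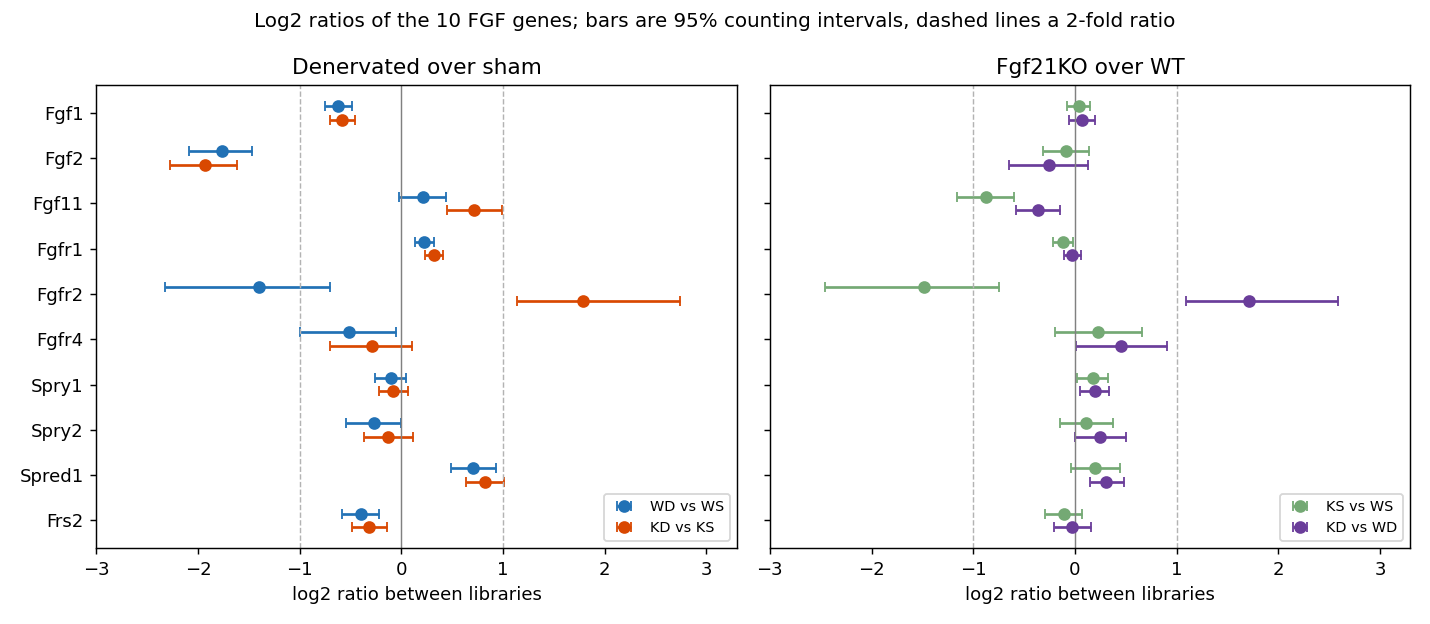
Log2 ratio (horizontal axis) between pairs of libraries for each of the 10 genes, denervated over sham on the left (WD vs WS, KD vs KS) and Fgf21KO over WT on the right (KS vs WS, KD vs WD); bars are 95% counting intervals and dashed lines mark a 2-fold ratio. Fgf2 is past 2-fold in both denervation comparisons, and Fgfr2 is past it in all 4, on opposite sides of 0 within each panel.

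Between pairs of libraries, without a test, Fgf2 and Fgfr2, or 2 of 10 members, passed 2-fold in WD vs WS (14.8% of all genes), and the same 2 did in KD vs KS (13.6%). The counting interval excluded 0 for 8 members in WT muscle and for 7 in Fgf21KO muscle, where it did so for 66.5% and 67.1% of all genes. The median absolute log2 ratio of the members was 0.458 and 0.451, beside 0.398 and 0.391 over all genes. The median signed ratio was -0.34 and -0.11, beside 0.01 in both comparisons over all genes.

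The second comparison asked whether these genes differed between Fgf21KO and WT muscle. Averaged over both surgeries, 0 of 10 members were called, where 0.176% of all genes were, and 0 passed the adjusted p of the edgeR test alone, where 0.673% did. At an unadjusted p below 0.05 there were 2 members, Fgf11 and Spred1, by edgeR, where 7.93% of all genes (1037) were, and 1 by DESeq2's Wald test, where 251 genes were and which also gave 0 past the adjusted p. Fgf11 was nearest, at -0.60 (SE 0.15, adjusted p = 0.0504 by edgeR). Fgf11 stood further from the limit with no filter (adjusted p = 0.127) and with total counts only (adjusted p = 0.245), both by edgeR. Its log2 ratio was -0.87 (interval -1.16 to -0.60) in sham and -0.36 (-0.58 to -0.15) in denervated muscle, lower in Fgf21KO in both.

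The other members had smaller fitted differences between genotypes. Fgfr4 was at 0.34 (SE 0.24), Spred1 at 0.26 (SE 0.12) and Fgfr2 at 0.23 (SE 0.48). Spry1, Spry2, Fgf1, Fgf2, Fgfr1 and Frs2 ranged from -0.16 (Fgf2) to 0.19 (Spry1). For Spred1 the ratio was 0.20 (interval -0.04 to 0.44) in sham and 0.31 (0.15 to 0.48) in denervated muscle. For Spry1 it was 0.18 (0.02 to 0.33) and 0.20 (0.05 to 0.34). These intervals cover counting error only, and differences of this size between single pooled libraries have no replicate check.

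Between pairs of libraries, 1 of 10 members, Fgfr2, passed 2-fold in KS vs WS (2.04% of all genes), and again 1, Fgfr2, in KD vs WD (1.55%). The interval excluded 0 for 4 members in KS vs WS (34.3% of all genes) and for 6 in KD vs WD (28.2%). The members' median absolute log2 ratio was 0.148 in sham muscle, beside 0.149 over all genes, and 0.252 in denervated muscle, beside 0.112.

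Fgfr2 had 42 (WS), 21 (WD), 18 (KS) and 70 (KD) counts (1.81, 0.643, 0.606 and 2.26 CPM). WS and KD were high and WD and KS low, all of them at least several times the level of 3 counts. On denervation the log2 ratio was -1.40 in WT (interval -2.32 to -0.70) and 1.79 in Fgf21KO muscle (1.14 to 2.74). Between genotypes it was -1.48 in sham (-2.46 to -0.75) and 1.71 in denervated muscle (1.09 to 2.59). The difference between the denervation responses was 3.19 on the log2 scale, with a counting interval of 2.33 to 4.45.

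That difference was not tested, because the interaction is the only residual degree of freedom of the model. Responses were at least 1 apart on the log2 scale in 4.11% of all genes, in 21.9% of the 1768 genes with a mean count under 50 and in 1.33% of the 11316 genes with more, and Fgfr2 had a mean count of 37.8. Past 2-fold in opposite directions in the 2 genotypes were 11 of 13084 genes (0.0841%), Fgfr2 among them. In the deposited log2 values, which add 1 to the scaled count, the difference was 1.79. The denervation ratios were then -0.78 in WT and 1.01 in Fgf21KO muscle, and the genotype ratios -0.81 in sham and 0.98 in denervated muscle, so only KD vs KS stayed past 2-fold. The annotated Fgfr2 exons on GRCm38 (chr7:130162451-133123350, minus strand) share 314 bases with Ctbp2 on the same strand, a gene of 412, 442, 447 and 377 counts in WS, WD, KS and KD whose log2 ratios lay between -0.39 and -0.15 in the 4 comparisons. The RefSeq start used for the promoter above (chr7:130266759-130267058) lies inside this GENCODE span, so the 2 sources differ on the extent of the gene. The level of Fgfr2 per kb rests on the GENCODE exons. Of 10 epithelial markers, the 2 analysed here (Krt10 and Sfn) summed to 2.84 (WS), 4.14 (WD), 3.23 (KS) and 2.10 (KD) CPM, highest in WD and lowest in KD. The part of these values in the Fgfr2 counts was not tested.

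For the other 9 members, the denervation response in Fgf21KO minus that in WT lay between -0.17 (Fgf2) and 0.51 (Fgf11). The interval included 0 for 8 of the 9. The exception was Fgf11 (0.17 to 0.86). For Fgf2 the interval of the difference was -0.61 to 0.27, for Spred1 -0.17 to 0.40, for Fgf1 -0.14 to 0.21 and for Spry1 -0.19 to 0.23. Across all genes the interval of the difference excluded 0 in 30.1%.

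**Figure D3:**
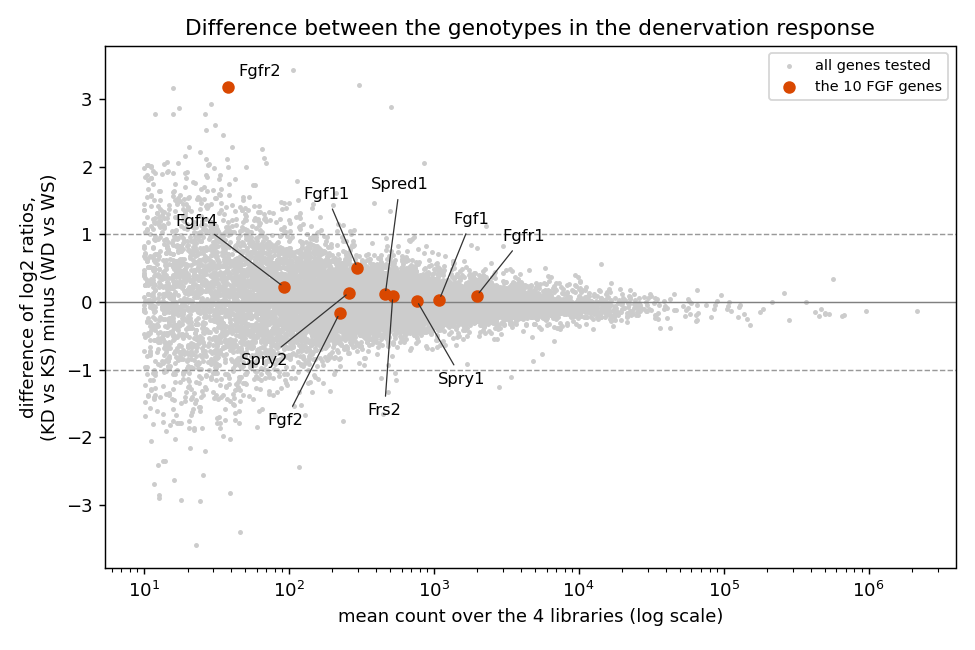
Difference between the denervation responses of the genotypes (vertical axis, log2 ratio KD vs KS minus log2 ratio WD vs WS) against the mean count over the 4 libraries (horizontal log axis) for all genes tested (grey) and the 10 FGF genes (orange); dashed lines mark a difference of 1. Fgfr2, at a mean count of 37.8, stands at 3.19, and the other 9 genes lie between -0.17 and 0.51.

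The members were then set beside the rest of their pathway, in 8 lists that held 97 tested genes, of which 87 were not members. For denervation 9 of the 97 were called higher and 6 lower, 15.5% in all beside 13.1% of all genes, and for genotype 0 were called. The split by direction depended on the scaling, since with total counts only 16 were called higher and 2 lower (over all genes 1705 and 324, in place of 895 and 816). Fgf2 and Rps6ka2 were then the 2 called lower, and the falls of Spry4, Etv1, Hs3st1 and Grb14 given below were no longer calls. Among the receptors and klotho co-receptors, 5 of 8 listed genes were analysed here, the klotho co-receptors not among them. Fgfr3, a receptor that is no member, had 85 (WS), 212 (WD), 86 (KS) and 250 (KD) counts and rose by 1.16 (SE 0.21, adjusted p = 2.21e-05 by edgeR), while 0 of the 3 member receptors were called and the decoy receptor Fgfrl1 was at -0.01. Both ligands analysed here, of 18 listed, are members.

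Of the 13 feedback inhibitors tested, 3 were called higher and 1 lower (6 and 0 with total counts only), and 7 and 3 passed the adjusted p alone. For this list and those below, 13.1% of all genes were called, and 26.6% passed the adjusted p alone higher and 27.0% lower. The median log2 fold change of the list was 0.35, beside 0.01 over all genes. Dusp4, a nuclear phosphatase of ERK, had 39 (WS), 889 (WD), 36 (KS) and 813 (KD) counts and rose by 4.23 (SE 0.16, adjusted p = 7.93e-19 by edgeR). Dusp5, another nuclear ERK phosphatase, rose by 1.72 from 19 and 17 counts in the sham libraries to 73 and 71. Errfi1, an inhibitor of the EGF receptor, rose by 1.70 from 407 and 581 counts to 1906 and 1927.

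Of the Sprouty genes, 1 of 3 passed the test. Spry4 had 172 (WS), 97 (WD), 126 (KS) and 75 (KD) counts and fell by 1.08 on the log2 scale (SE 0.22, adjusted p = 1.66e-04 by edgeR), while Spry1 and Spry2 did not pass, a difference that was not itself tested. Spred2 was at -0.78 (adjusted p = 1.97e-05) and Spred3 at 0.74 (adjusted p = 0.0244), both under 2-fold by edgeR, beside 0.77 for Spred1. Of the 3 Spred genes, 2 were higher and 1 lower in denervated muscle.

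**Figure D4:**
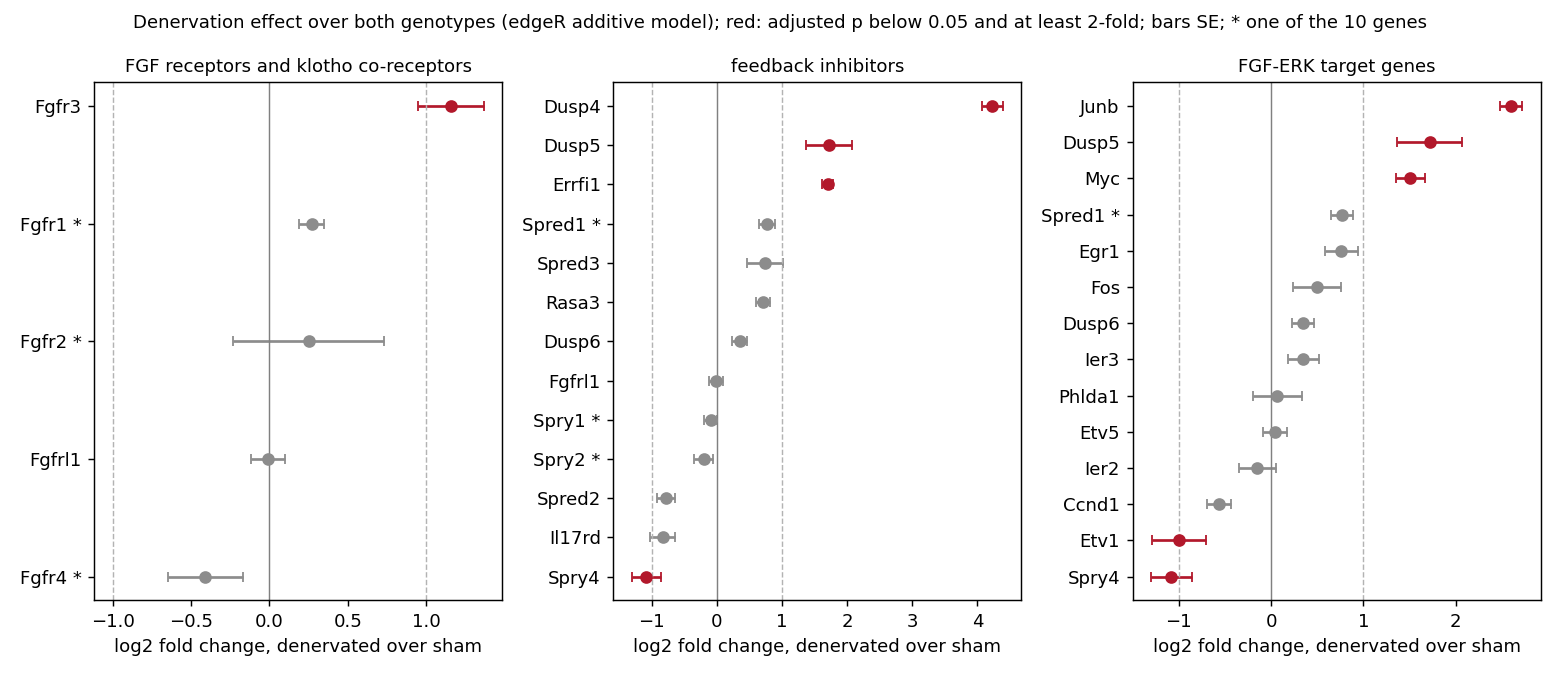
Log2 fold change on denervation over both genotypes (horizontal axis, edgeR additive model, bars are SE) for the tested genes of 3 pathway lists, namely receptors, feedback inhibitors and FGF-ERK target genes; red marks genes with an adjusted p below 0.05 and at least 2-fold, and an asterisk marks the members. Dusp4 stands highest at 4.23 and Spry4 lowest at -1.08, with Spred1 at 0.77 and Spry1 and Spry2 near 0.

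Of the 14 FGF-ERK target genes tested, 3 were called higher and 2 lower (5 and 0 with total counts only), with a median of 0.35. Junb and Myc, immediate early transcription factors with many other inputs, rose by 2.60 (adjusted p = 3.91e-17) and 1.51 (adjusted p = 4.89e-09), Dusp5 is named above, and Etv1, an ETS factor, fell from 91 and 60 to 61 and 33 counts (adjusted p = 0.00465) along with Spry4, all by edgeR. Of the 26 genes for FGF-binding proteins and heparan sulphate synthesis, 1 was called higher and 1 lower (2 and 0 with total counts only), with a median of -0.17. The proteoglycan Sdc4 rose by 1.58 from 399 and 518 counts in the sham libraries to 1794 and 1519 in the denervated ones, and the sulphotransferase Hs3st1 fell by 1.10 on the log2 scale from 32 and 31 counts to 21 and 15.

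Of the 24 adaptors and proximal signalling genes, 2 were called higher and 1 lower (4 and 0 with total counts only), with a median of -0.30, near the -0.36 of Frs2. The kinases Src and Fyn rose by 1.95 and 1.29, and Grb14, an adaptor that inhibits the insulin receptor, fell by 1.07 on the log2 scale. Of the 17 RAS-ERK cascade genes, 0 were called higher and 1 lower by edgeR, and 5 passed the adjusted p alone. The one called was Rps6ka2, a kinase downstream of ERK, which fell by 1.38 on the log2 scale from 6655 and 7941 counts to 3669 and 3117. The lists share Dusp5, Dusp6, Spry4, Spred1 and Fgfrl1 between them.

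Markers of the fibres and of other cells in the muscle moved with denervation too. The 3 fibre markers all passed the adjusted p downwards, and Pygm, at -1.40, was called by edgeR. All 10 endothelial markers passed the adjusted p downwards (4 called), with summed levels of 807 CPM in WS and 712 in KS against 428 and 429 in WD and KD. The 10 fibro-adipogenic progenitor markers summed to 1066 and 1074 CPM in sham against 681 and 706 in denervated libraries (0 called, 7 past the adjusted p, all lower). Cell type lists are given under TMM only, relative to the median gene. The study counted more of these progenitors in denervated than in sham limb muscle, and the sums are RNA levels, not cell numbers. Of 7 pericyte and smooth muscle markers 6 were called lower (1138 and 1062 against 677 and 672 CPM).

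Markers of the remaining cell types moved both ways. Of 9 macrophage markers tested 4 were called higher, with sums of 32.1 and 32.7 CPM in WS and KS and 69.8 and 68.7 in WD and KD. Of 5 Schwann cell markers analysed here 2 were called lower (64.7 and 63.7 against 25.0 and 25.1 CPM). The 2 tenocyte markers analysed here summed to 59.7 and 67.3 CPM in WS and KS against 30.1 and 34.9 in WD and KD. Mkx, at 20 (WS), 7 (WD), 24 (KS) and 15 (KD) counts, was called lower. Fmod, at -0.96 and not called, held most of those sums (58.9 CPM in WS). The 5 blood cell markers (289, 208, 333 and 170 CPM in WS, WD, KS and KD) had 0 called and 5 past the adjusted p, all lower. Of 5 satellite cell markers analysed here, 1 was called higher and 1 lower, and Pax7 and Myf5 were not analysed here. The 5 markers summed to 3932 and 3985 CPM in WS and KS and 6032 and 5440 in WD and KD. Des alone had 3782 and 3851 CPM in WS and KS and 5859 and 5288 in WD and KD, so the sums mostly follow that gene. These lists moved alongside the lower Fgf1 and Fgf2 and the higher Spred1, and their part in those values was not tested.

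Genes with the profile nearest to that of a member over the 4 libraries were sought by the root mean square difference of centred log2 CPM among genes averaging at least 50 counts. For Fgf2 they were Rbm38 (0.0288), Plpp7 (0.0423) and Abcb4 (0.0446), and 16 of 11315 genes lay within 0.1. For Spred1 they were Wwox (0.0240), Slc4a7 (0.0255) and Rps13-ps1 (0.0367), and 117 genes lay within 0.1. For Fgfr2 no gene did (0 of 11316), and the nearest were Zfp185 (0.291), Igsf10 (0.348) and Ptn (0.361). Fgfr2 itself averaged 37.8 counts, under the limit of 50, so genes of its own depth were left out of the search. The lack of a closer gene therefore does not show that its profile was unusual. Zfp185 had 73 (WS), 54 (WD), 45 (KS) and 107 (KD) counts, high and low in the same libraries as Fgfr2, with log2 ratios of -0.90 and 1.16 on denervation. With 4 libraries these likenesses are descriptions.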

How the data were processed

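RNA from 4 pooled TA muscles per group was sequenced as 1 mRNA library with the TruSeq Stranded mRNA kit. The authors deposited raw read counts per gene, made against GRCm39 per the submitters' processing notes, which also list FastQC. The aligner, counter and annotation were not given in the sources used here. A second deposited table, named for FPKM, held log2 values of 1 plus the count scaled by a single factor for each library (100% of genes within 0.1%), so it was used only for alternatives, where FPKM had been planned for.

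Counts were analysed in edgeR 4.0.16 (R 4.3.3) with TMM scaling and a mean count of at least 10. The additive model (genotype and surgery, common biological coefficient of variation 0.068) was tested by quasi-likelihood in edgeR, with Benjamini-Hochberg adjusted p-values over 13084 genes, called at an adjusted p below 0.05 and an absolute log2 fold change of at least 1. Pairs of libraries were compared by the log2 ratio of CPM with a prior count of 2 and an exact conditional 95% interval (for differences of ratios, a normal interval on the log scale), with no p-value. Such intervals are built from the counts of 1 library per group, so they cover counting error only. Reads carry no molecular identifiers, so repeated copies of a molecule may make the intervals too narrow even for that. On counts simulated from the additive model itself, with a constant coefficient of variation near the fitted one, 99.9% of 200 genes changed 4-fold among 13084 were recovered. The median number of false calls was 0 over 5 draws. The draws held no interaction, fewer changed genes than the data and no smaller changes. They therefore check the code and do not give the power or error rate of the calls reported here.

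Exon lengths and gene positions came from GENCODE M21 (GRCm38) and promoters from RefSeq GRCm38.p6, matched by symbol, with no coordinates converted. Promoters were searched for 8 of the 10 members, leaving out Fgf1 and Fgfr1. DESeq2 1.42.0, other scalings, filters, prior counts and thresholds were alternatives. The members and gene lists were chosen with earlier results of these data known. Genes named besides the members were, from each pathway list, the 3 that rose most and the 3 that fell most among those called, from each cell type list at most 3 by mean count, and the 3 nearest in profile to the members with the largest rise, fall and genotype difference. Fgfrl1, Spred2, Spred3, Nudt6, Ctbp2 and Chrnb1 were named after their values were seen.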

Additional observations from a re-analysis of the deposited data

Results flagged for a closer look

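Fgfr2 had denervation ratios of opposite sign in the 2 genotypes, going from 42 to 21 counts in WT and from 18 to 70 counts in Fgf21KO muscle. The log2 ratios differed by 3.19 (95% counting interval 2.33 to 4.45), and with 1 library per group the difference was not tested. The gene is the least abundant of the 10, and 21.9% of genes with a mean count under 50 had responses at least 1 apart on the log2 scale, a lower limit than 3.19. Of 13084 genes, 11 (0.0841%) passed 2-fold in opposite directions in the 2 genotypes, Fgfr2 among them.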

How the results depend on the processing

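No paired analysis was possible because a group holds a single pooled library, and leaving out a library would leave no residual degree of freedom. Of 484 alternative values of the 10 members, 463 kept their call and direction (fitted values) or stayed within their counting interval (ratios), 18 ratios or differences of ratios left that interval, and with total counts only the fitted rise of Spred1 became a call at 1.09. No called value changed sign. With total counts only the fitted denervation changes shifted by several SE, to -0.04 for Frs2 (adjusted p = 0.783 by edgeR), -0.28 for Fgf1 and 0.59 for Fgfr1, and those of Spry1 (0.23) and Spry2 (0.12), neither past the adjusted p, changed sign. Uncalled ratios between libraries changed sign 7 times, all with total counts only, in Spry1, Spry2, Fgfr4 and Frs2 on denervation and in Fgf1 in KS vs WS (-0.04). With total counts only, Spred1 and Fgf11 passed 2-fold in KD vs KS (1.18 and 1.07). For the denervation effect 6 members passed the adjusted p of edgeR, 5 with total counts only, 5 without the genotype term, and 3 (Fgf1, Fgf2 and Spred1) by DESeq2's Wald test. At a mean count of at least 50 there was no value for Fgfr2.

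The count of called genes moved by over 1.5 times in 18 of 61 alternatives. Without a fold threshold it was 7003 in place of 1711 for denervation and 88 in place of 23 for genotype. For genotype it was 15 at a mean count of at least 50, 13 with DESeq2's Wald test and 0 by edgeR's quasi-likelihood test without the surgery term (51 genes at an unadjusted p below 0.05). With the deposited log2 values and a pseudocount of 1, genes past 2-fold numbered 1188 in place of 1936 in WD vs WS, 1117 in place of 1780 in KD vs KS, 29 in place of 267 for KS vs WS and 25 in place of 203 for KD vs WD, and responses at least 1 apart 65 in place of 538. Genotype gave 68 in sham and 46 in denervated muscle among genes averaging at least 50 counts. With the exact test of edgeR and a coefficient of variation set to 0.4, denervation gave 63 calls in WT and 81 in Fgf21KO muscle, and genotype 0 in sham and 3 in denervated muscle, with 0 members among them. Set to 0.1, genotype gave 56 calls in sham and 51 in denervated muscle, 1 of the latter a member. The called genes of the pathway lists stayed within 1.5 times of 15 in number, but with total counts only they split into 16 higher and 2 lower in place of 9 and 6. Depth limits Fgfr2 most, at 18 to 70 counts a library.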

Other observations

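Of the 97 pathway genes tested, 2 passed the adjusted p of edgeR for genotype, where 0.673% of all genes did. Both were lower in Fgf21KO muscle and under 2-fold, and they were named after their values were seen. Ccnd1, the cyclin D1 gene, had 392 (WS), 412 (WD), 349 (KS) and 222 (KD) counts, with a fitted difference of -0.66 (adjusted p = 0.00674 by edgeR). KD was its lowest library, and its log2 ratio, Fgf21KO over WT, was -0.52 among sham and -0.81 among denervated libraries. Hspg2, which encodes the heparan sulphate proteoglycan perlecan, had 7376 (WS), 5286 (WD), 6173 (KS) and 4624 (KD) counts, with a fitted difference of -0.37 (adjusted p = 0.0301 by edgeR) and a ratio of -0.61 for KS vs WS and of -0.12 for KD vs WD.

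Denervation ratios had opposite signs in the 2 genotypes for 19 of the 97 pathway genes (19.6%, beside 17.2% of all genes). Those with both counting intervals excluding 0 were Fgfr2, Fgfrl1, Agrn, Hras and Etv5. The share of all genes that met this stricter limit is not given, so these names are a description only. Agrn, the gene of the synapse-organising proteoglycan agrin and picked out after its values were seen, had counts of 744 (WS), 672 (WD), 595 (KS) and 744 (KD), with 32.0 CPM in WS and 24.1 or less in the others, and the log2 ratios were -0.64 in WT and 0.26 in Fgf21KO muscle. WS stood above the other libraries, neither ratio reached 2-fold, and the difference was not tested.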
